A study of Bombus terrestris with 20 samples.

Results

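The sex determination gene feminizer (fem) was measured in workers and worker-laid eggs of the bumblebee Bombus terrestris. It was selected by its symbol, which each of the 4 tables of values lists once, and it is 1 of the 10661 genes with a value in any of them. The mRNA-seq study behind the tables asked how gene expression differs between workers that reproduce and workers that do not. The subspecies was B. t. audax, and the workers lived in colonies that still had their queen. Ovary-active workers had ovaries that scored 4 to 6 and were 22 to 34 days old. Ovary-inactive workers had ovaries that scored 0 to 1 and were 24 to 32 days old. Brain, fat body, and ovary were each sequenced in 3 libraries per phenotype, 18 libraries in all, and eggs in 2 libraries. A tissue library was a pool of 7 workers, except for ovary-inactive brain replicate 2, which combined the brains of 14. Another ovary-inactive brain pool was taken from a later set of colonies. Ovary-active and ovary-inactive pools were paired by age. Each egg library was a pool of 24 unfertilized eggs, at most 1 h old, laid by workers in microcolonies. The tissue libraries held 23118226 to 34419603 reads that the tables account for, and the estimated counts of the egg libraries summed to 50166010 and 52324103. Age-matched workers of the phenotypes came mostly from different colonies, so colony and phenotype were not separated. Replicates are thus pools, and p-values measure the spread between pools. Apart from the later brain pool, the pools of a phenotype drew in part on the same colonies. The p-values therefore do not measure the spread between independent colonies.

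In bees, fertilized eggs generally develop as females and unfertilized eggs as haploid males. In the honeybee, fem is the switch gene of the sex determination pathway. The female splice form of its transcript encodes a full-length serine/arginine-rich protein, related to Transformer of Drosophila, that directs the female splicing of fem itself and of doublesex, the transcription factor at the end of the pathway. The male splice form holds an early stop codon. The current RefSeq annotation lists 3 transcripts and 3 proteins for fem of B. terrestris. The deposited values add up the transcripts of a gene, so every level below is of all fem transcripts together and does not tell the female form from the male form. Bees can hold similar copies of fem, such as the honeybee gene csd, and whether reads of a copy were counted with fem was not tested.

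fem was much lower in the ovaries of ovary-active workers than in those of ovary-inactive workers, and it was not called as differing in brain or fat body. In ovary, its normalized count was 454, 366, and 176 in the 3 ovary-active libraries and 1375, 1186, and 1557 in the 3 ovary-inactive libraries. A normalized count is an estimated number of reads for the gene, divided by a factor that makes the libraries of 1 tissue comparable. All 3 ovary-active libraries lay below all 3 ovary-inactive libraries, and the lowest ovary-inactive value was 2.61 times the highest ovary-active value. The means were 332 ± 142 (SD over n = 3 pools) and 1373 ± 185 (SD, n = 3), so the ovary-active mean was 24.2% of the ovary-inactive mean. On the log2(normalized count + 1) scale, the change of fem in ovary-active workers was -2.14 (SE, standard error, 0.34, 95% interval -2.93 to -1.35, Benjamini-Hochberg adjusted p = 0.00174 in limma over 9496 genes). This is a level 4.41-fold lower, with a 95% interval of 2.56 to 7.62. A two-sided exact permutation test over the 6 libraries gave p = 0.1, the smallest value that 3 libraries against 3 allow. These are bulk tissues, in which fewer cells of a type and less RNA per cell cannot be told apart.

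**Figure D1:**
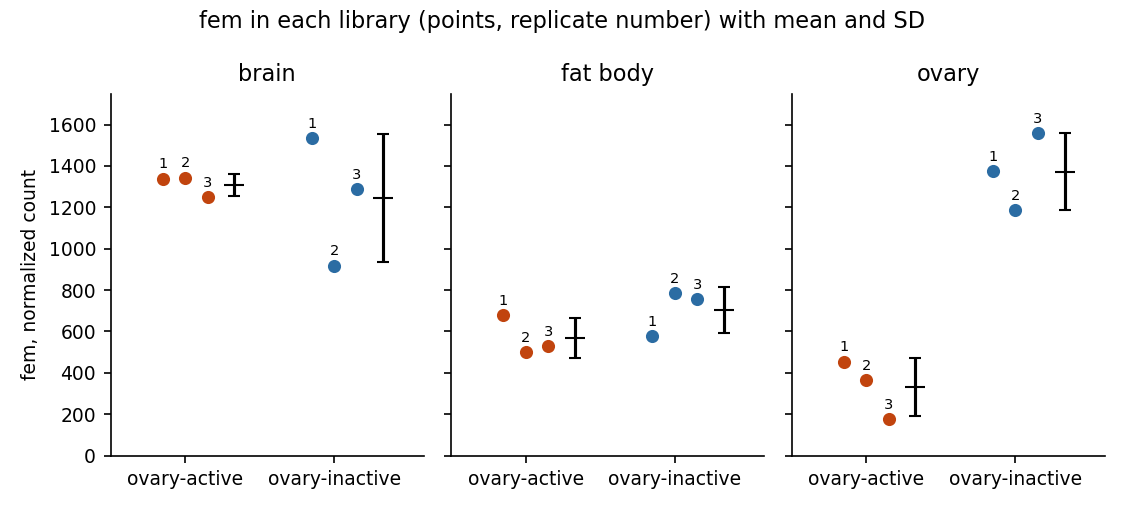
Normalized count of fem (vertical axis, from 0) in each of the 18 tissue libraries, by tissue and phenotype. Points are libraries, labelled by replicate number, and the black marks are the mean and SD of 3 libraries. In ovary the ovary-active libraries sit between 176 and 454 and the ovary-inactive libraries between 1186 and 1557, while the phenotypes overlap in brain and in fat body.

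An ovary-inactive worker DEG is a gene that was called lower in ovary-active workers at an adjusted p under 0.05. In ovary, 2531 of 9496 genes tested (26.7%) were ovary-inactive worker DEGs, against 2592 called higher, so the call of fem by itself is shared with a large part of the genes. With libraries scaled to their totals the split was 3788 lower and 1580 higher. In 33.3% of the genes tested, all ovary-active libraries lay below all ovary-inactive libraries, as they did for fem. A fall as large as that of fem was less common. Counting changes in either direction, 8.86% of the genes tested had a larger absolute log2 fold change. Of all genes tested in ovary, 378 (3.98%) had a lower log2 fold change than fem, and 369 of these were ovary-inactive worker DEGs. The median over the ovary-inactive worker DEGs was -1.11, against -2.14 for fem. By p-value, fem ranked 1417 of the 9496 genes.

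**Figure D2:**
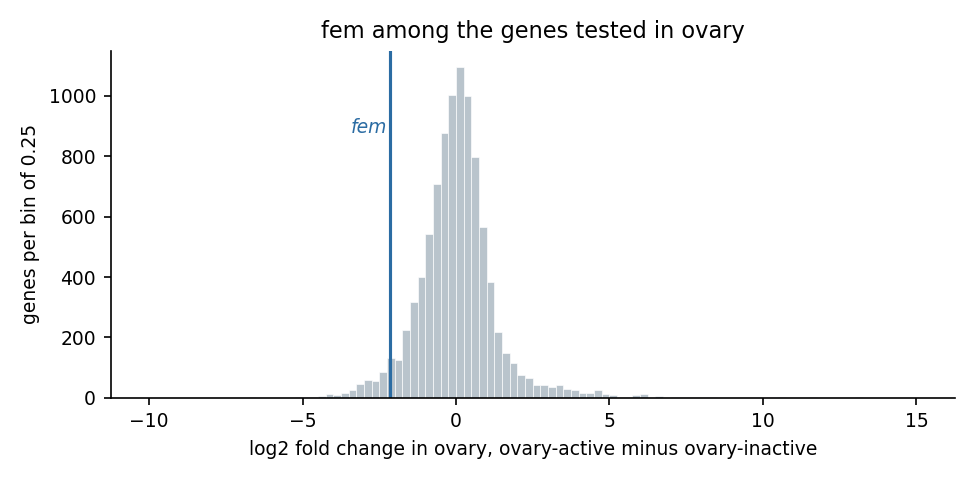
Number of genes (vertical axis) in bins of log2 fold change in ovary, ovary-active minus ovary-inactive workers (horizontal axis, bins 0.25 wide), for the 9496 genes tested. The line marks fem at -2.14, with 3.98% of the genes below it.

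The reads behind these ovary values were few in ovary-active workers. In ovary, the fem values were whole multiples of a constant of each library, the worth of 1 read, and this gave 454, 345, and 127 reads in ovary-active workers and 1575, 1540, and 1540 in ovary-inactive workers. At 127 reads, the counting error alone is 8.87% of the value. The ovary-active libraries differed by far more than that, their highest value being 2.58 times their lowest. Replicate 3 was the lowest ovary-active library. Without it, fem was still called, at a log2 fold change of -1.74 (limma adjusted p = 8.06e-04).

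The brains of ovary-active workers held 1338, 1342, and 1247 normalized counts of fem, and those of ovary-inactive workers 1533, 917, and 1288. The 3 ovary-active brains lay inside the range of the ovary-inactive brains. The ovary-inactive libraries were the more spread, with an SD of 310 around a mean of 1246, against 53.5 around 1309 in ovary-active workers, and replicate 2, the pool of 14 workers, was the lowest. The log2 fold change was 0.10 (SE 0.19, 95% interval -0.35 to 0.55, Benjamini-Hochberg adjusted p = 1.0 in limma over 9490 genes). By this interval, the ovary-inactive level was between 0.681 and 1.27 times the ovary-active level. Without ovary-inactive replicate 2, the log2 fold change was -0.10, and with libraries scaled to their totals it was -0.0042, so the data give no direction in brain. The log2 fold change was 0.27 without ovary-inactive replicate 1. Ovary-inactive replicate 3, whose values under 1000 reads were all whole reads within 0.02 reads, unlike those of any other tissue library, and ovary-active replicate 2, in which a few genes took a large share of the total, stood apart from the other brains. Without the former the log2 fold change was 0.14, and without the latter 0.08. Of the genes tested in brain, 0% were called lower in ovary-active workers by limma. Without adjustment, 105 genes had a p under 0.05, and edgeR and DESeq2 on read numbers called 0 and 2 genes as lower.

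The fat bodies of ovary-active workers held 678, 499, and 528 normalized counts of fem, and those of ovary-inactive workers 577, 784, and 755. Ovary-active replicate 1 lay above ovary-inactive replicate 1, and otherwise the ovary-inactive libraries were the higher ones. The means were 568 ± 96.1 (SD over n = 3 pools) and 705 ± 112 (SD, n = 3). The log2 fold change was -0.31 (SE 0.16, 95% interval -0.68 to 0.05, Benjamini-Hochberg adjusted p = 0.253 in limma over 8850 genes). By this interval, the ovary-inactive level was between 0.964 and 1.599 times the ovary-active level. In fat body, 1.97% of the genes tested were ovary-inactive worker DEGs, and fem was not among them. This share depended on the method, since limma called 174 genes lower, edgeR 181 and DESeq2 639 on read numbers, limma 349 with libraries scaled to their totals, and 31 with a replicate block, and fem was called by none of these. Two-sided exact permutation tests over the 6 libraries gave p = 0.2 in fat body and p = 0.8 in brain.

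Since a call in one tissue and none in another does not show a difference, the effects themselves were compared in 1 limma fit over the 18 libraries and 8586 genes. The effect of ovary activation on fem was lower in ovary than in fat body (a log2 difference of -1.83, SE 0.39, 95% interval -2.65 to -1.01, limma adjusted p = 0.00173). It was also lower in ovary than in brain (a log2 difference of -2.24, SE 0.39, 95% interval -3.07 to -1.42, limma adjusted p = 3.25e-04). Fat body and brain differed by -0.41 (SE 0.39, 95% interval -1.24 to 0.41, limma adjusted p = 0.781), which did not pass the threshold. Such differences were common among all genes, with 40.8% called between ovary and fat body and 49.6% between ovary and brain in either direction, against 0.268% between fat body and brain. The first 2 comparisons share the ovary libraries. The tissues came in large part from the same workers, a link that the fit ignores.

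**Figure D3:**
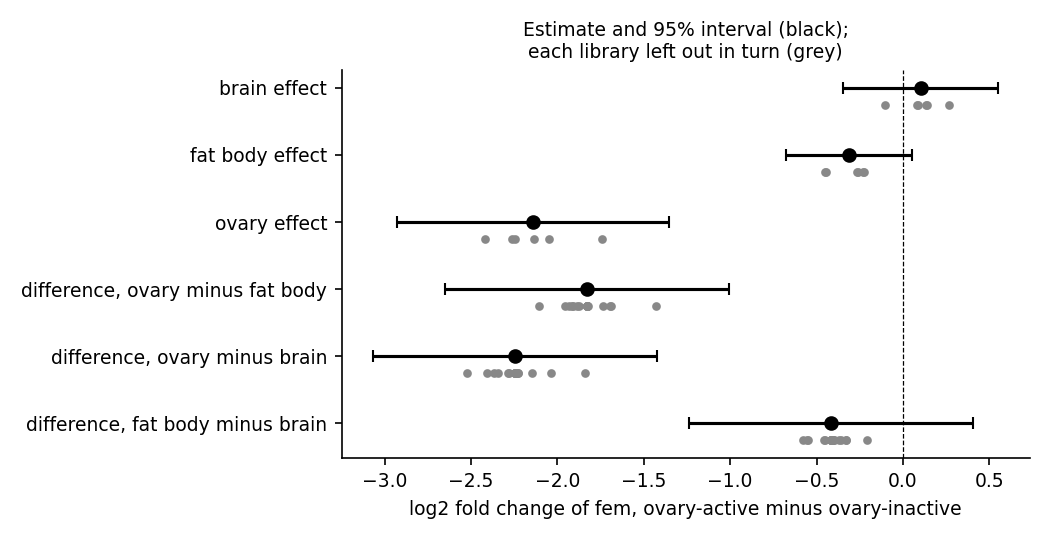
Log2 fold change of fem, ovary-active minus ovary-inactive workers, in each tissue and the difference of these effects between tissues (horizontal axis). Black points and bars are the limma estimate and its 95% interval, grey points the same estimate after dropping 1 library. The ovary effect stays between -2.42 and -1.74, while the brain effect lies on both sides of 0, from -0.10 to 0.27.

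The level of fem was set across tissues as CPM, here the normalized count for each 1000000 of a library's total. In this order, ovary-inactive ovary came first, with 58.1 ± 8.60 CPM (SD over n = 3 pools). Ovary-inactive brain followed with 50.6 ± 12.5 and ovary-active brain with 49.8 ± 7.25. Fat body held 24.3 ± 4.05 without ovary activation and 19.24 ± 3.201 with it. Ovary-active ovary came last with 11.3 ± 5.33. The libraries of neighbouring groups overlapped between ovary-inactive ovary and ovary-inactive brain, between the phenotypes in brain, and between the phenotypes in fat body. They did not overlap between brain and fat body, nor between ovary-active fat body, at 17.2 to 22.9 CPM, and ovary-active ovary, at 5.45 to 15.8. The tables were normalized separately for each tissue, so these levels are a description, with no test.

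The order of the levels above ovary-active ovary depended on the scaling. The 20 most abundant genes took 31.7% to 35.4% of the total in fat body, 6.48% to 6.81% in ovary-inactive ovary, and 29.9% in ovary-active brain replicate 2, against 11.9% to 14.46% in the other brains. With these genes left out of the totals, fem in ovary-active and ovary-inactive fat body was at 29.2 and 36.1 CPM. With median-of-ratios scaling over the 18 libraries, which sets the typical gene equal, ovary-inactive fat body was at 38.3, above ovary-inactive ovary at 36.3, and brain came first, at 44.97 with ovary activation and 43.1 without it. Ovary-active ovary was lowest under all 3 scalings, at 11.3, 8.98, and 12.95.

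**Figure D4:**
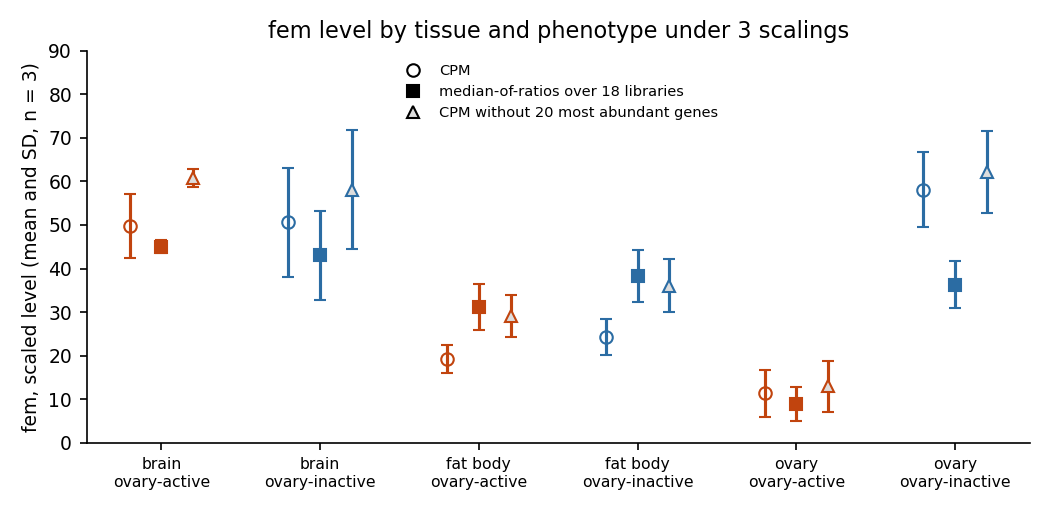
Scaled level of fem (vertical axis, mean and SD of 3 libraries) by tissue and phenotype under 3 scalings, namely CPM, median-of-ratios over 18 libraries, and CPM without the 20 most abundant genes. Red marks ovary-active and blue ovary-inactive workers. Ovary-active ovary is lowest in each, and the gap between fat body and inactive ovary, 24.3 to 58.1 CPM in ovary-inactive workers, closes under median-of-ratios scaling.

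Worker-laid eggs, which develop as males, held fem transcripts. The estimated count of fem was 755 in replicate 1 and 740 in replicate 2, a ratio of 1.02. These counts are corrected for transcript length, unlike those of the tissues, and correspond to 15.05 and 14.14 CPM in the egg libraries. The zFPKM of fem, which gives the distance of a gene's log2 value from the main peak of expressed genes in units of their spread, was -1.05 in both libraries. Egg-expressed genes (EEGs) are those with a zFPKM over -3 in each of the egg libraries, 7828 of 10661 genes, and fem was one of them. Its estimated count was 12.8 and 14.2 times the count at that threshold. Of all 10661 genes, those under the threshold included, it stood above 44.5% in replicate 1 and 47.4% in replicate 2. Among the genes over the threshold it was in the lower part, at rank 5919 of 8601 in replicate 1 and 5603 of 7895 in replicate 2. As the units differ, the egg values were not compared with those of the ovaries. The egg libraries differed far more in some muscle genes. Troponin I (LOC100642480) had an estimated count of 7235 in replicate 1 and 30.3 in replicate 2, and LOC100642449 had 347 and 0. Whether replicate 1 held RNA from other tissue was not tested.

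Being both an EEG and an ovary-inactive worker DEG in ovary was usual. Of the 2531 ovary-inactive worker DEGs, 77.0% were EEGs, as were 86.6% of the 2592 genes called higher in ovary-active workers and 82.0% of all genes tested in ovary.

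Other genes of the sex determination pathway could be followed only in part, because the sources used here pair 20.8% of the gene IDs with a name. The list of pathway genes held fem and 1 other named gene. That gene was LOC100642233, a doublesex- and mab-3-related transcription factor A2-like gene, a family that shares the DNA-binding domain of doublesex. Brains of ovary-active workers held 54.9 ± 6.57 normalized counts of it (SD over n = 3 pools) and those of ovary-inactive workers 50.03 ± 13.47, and it was not called (limma adjusted p = 1.0). In ovary it was at 2.58 and 2.09, too low to be tested, and it was not an EEG. Of splicing factors of the serine/arginine-rich family, to which the honeybee Fem protein is related, 2 were named, and 1 of the 2 was called higher in ovary-active ovary. The single named member of the m6A writer complex, which in Drosophila acts in the splicing of a sex determination gene, was also called higher there. None of these was called in brain or fat body. The share of genes called higher in ovary-active ovary was 27.3%.

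Genes named fem-1 homolog share a name with fem but are a different family of ankyrin repeat proteins, first known from the sex determination of Caenorhabditis elegans. Of the 2 named members, 1 was called in ovary, and in the opposite direction to fem. LOC100642959 (protein fem-1 homolog CG6966) rose from 4164 ± 1029 in ovary-inactive to 11146 ± 1442 in ovary-active ovary (SD over n = 3 pools), by 1.44 on the log2 scale (SE 0.19, limma adjusted p = 8.34e-04). The other member was not called in any tissue.

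Genes listed as markers of cell types were called in both directions in ovary, where 26.7% of all genes tested were called lower and 27.3% higher. Of 7 named muscle genes, 4 were called lower and 1 higher in ovary-active ovary, with a median log2 fold change of -0.65 against 0.02 over all genes tested. Their summed normalized count was 28962 to 35831 in ovary-active and 36936 to 51957 in ovary-inactive libraries. The gene with the largest share of these sums was LOC100642686, at 18936 ± 2922 and 15289 ± 3881. Troponin I (LOC100642480), part of the switch that starts muscle contraction, had 2050 ± 29.8 and 7496 ± 1650, which is -1.85 on the log2 scale (limma adjusted p = 1.89e-04). Genes annotated as titin or its homolog had log2 fold changes of -1.58 (LOC100642449), -1.53 (LOC100644154), -0.65 (LOC100643406), and 1.01 (LOC100643023), all called. Of the same annotation, LOC100642686 at 0.33 and LOC100643650 at -0.42 were not called. In ovary-active replicate 3, where fem was lowest, troponin I was at 2021, against 2080 and 2048 in the other ovary-active libraries. LOC100642449, LOC100643406, LOC100643650, and LOC100644154 also had their lowest ovary-active value in replicate 3. LOC100642686 and LOC100643023 had theirs in replicate 2. Whether these orders relate to the change of fem was not tested. In fat body, 1 of these 7 muscle genes was called lower.

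Of 3 named genes of the germ line, 2 were called lower in ovary-active ovary, against 26.7% of all genes, with a median log2 fold change of -0.42 and sums of 7496 to 10836 against 10602 to 14230. Ago3 (LOC100644656), a protein of the piRNA pathway that guards the germ line against transposons, had 2315 ± 263 and 5238 ± 785, a log2 fold change of -1.17 (limma adjusted p = 7.94e-04), whereas tudor (LOC100644474), another germ line gene, was at 0.08 and not called. Of 3 genes listed for fat body, 2 were called higher in ovary-active ovary, against 27.3% of all genes, with a median of 1.02 and sums of 4989 to 6007 against 2359 to 2678. They were a vitellogenin-like precursor (LOC100643258, log2 fold change 3.34) and melanotransferrin (LOC100644446, log2 fold change 1.02). No marker of these lists was at 0 in ovary. The part that cell composition had in the change of fem was not tested. The tissue labels could not be checked by these lists. The muscle and germ line lists were also high in brain, with sums of 23254 to 38165 and 3680 to 8127 in ovary-inactive libraries. Most of that muscle sum was LOC100642686, at 29846, 18261, and 23194, whereas troponin I was at 167, 774, and 311. No neuron marker was named, and each of the 3 genes listed for fat body had its lowest normalized counts in the fat body table, where the vitellogenin-like precursor had means of 3.09 and 2.80 in the ovary-active and the ovary-inactive group, so the list does not mark fat body in these data.

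The genes whose pattern was most like that of fem were found by Pearson's r of log2(CPM + 1) over the 18 libraries, among 8586 genes and with no test. The 5 highest were LOC100648914 (r = 0.99), LOC100649222 (r = 0.99), LOC100646778 (r = 0.99), LOC100646749 (r = 0.99), and LOC100649551 (r = 0.98). The median r over all genes was 0.27, and 162 genes (1.89%) had an r over 0.9. The genes of a library share its total, and the tissues share their workers in large part. The 5 were picked by r with fem over these same libraries, so a shared course follows in large part from the choice. Each of the 5 had its lowest mean level in ovary-active ovary, and within it the lowest value in replicate 3, as fem did. LOC100646749, for example, had a normalized count of 321, 267, and 71.8 in ovary-active and 1219, 1263, and 1460 in ovary-inactive ovary. LOC100648914 had 1914, 1881, and 879 against 4339, 3991, and 4480. All 5 were EEGs, as were 82.0% of the genes tested in ovary.

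**Figure D5:**
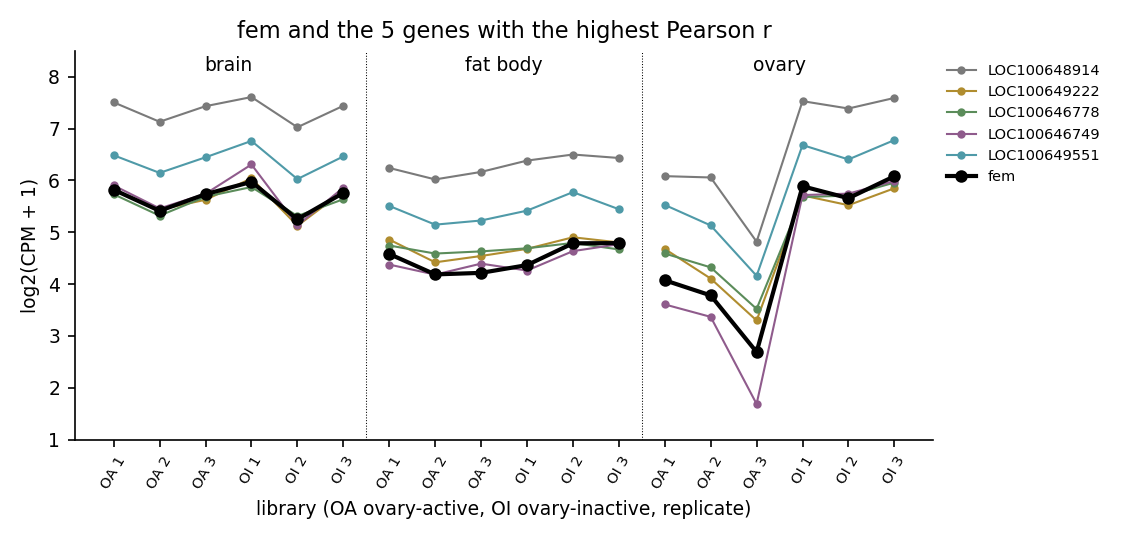
log2(CPM + 1) of fem (black) and of the 5 genes with the highest Pearson r (colours) in the 18 tissue libraries, in 3 blocks by tissue. OA stands for ovary-active, OI for ovary-inactive, followed by the replicate, and lines only join the points of a gene within a tissue. The genes dip together in brain OI replicate 2 and in ovary OA replicate 3, and the r of the 5 lies between 0.98 and 0.99. They were picked by this r, so their common course follows in large part from the choice.

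When each gene was centred within its tissue, so that differences between tissues no longer counted, the 5 highest were LOC100644785 (r = 0.99), LOC100647685 (r = 0.99), LOC100646749 (r = 0.99), LOC100648683 (r = 0.99), and LOC100646925 (r = 0.99), against a median of 0.47. LOC100646749 thus stood in both lists. LOC100644785, named dmX-like protein 2, had a normalized count of 720, 678, and 198 in ovary-active and 4259, 3984, and 5319 in ovary-inactive ovary. The log2 fold changes of these 5 genes in ovary lay between -3.28 and -1.01, and all were EEGs, as were 82.0% of the genes tested there. As they were picked by r with fem over the same libraries, their fall in ovary follows in large part from the choice.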

How the data were processed

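Messenger RNA was sequenced in 18 tissue libraries and 2 egg libraries. The authors used Kallisto 0.46.1 on the Bter_1.0 transcriptome and summed its estimates by gene with tximport. What they deposited for the tissues is a signal value, the estimated count over a DESeq2 (version 1.34.0) factor fitted within that tissue, called normalized count here. For eggs the authors deposited estimated counts scaled from length-corrected abundances. fem and the gene lists were chosen with earlier results of these data known. One read was worth 0.770 to 1.386 normalized counts, and the libraries held 23118226 to 34419603 reads on this basis. Of values under 1000 reads, 100% were whole within 0.02 reads in brain OI replicate 3, against 63.2% to 70.6% in the other libraries. In fat body, fem carried a factor of -32.6 ppm in 5 libraries and of 163 ppm in OI replicate 2.

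R 4.3.3 and limma 3.58.1 were used to compare phenotypes within tissues, after log2(normalized count + 1), allowing for a trend and adjusting by Benjamini-Hochberg. Genes averaging less than 10 over the 6 libraries were left out. The threshold was an adjusted p of 0.05. Effects were compared between tissues in 1 fit with 6 groups. The alternatives were pseudocounts of 0.5 and 8, no filter, other scalings, no trend, library weights, all libraries in 1 fit, a replicate block, edgeR 4.0.16 and DESeq2 1.42.0 on values divided by the worth of 1 read and rounded, and leaving out each library. In simulated libraries, limma called 85.3% of genes changed by 1 on the log2 scale in ovary (9475 genes), 85.1% in fat body (8815), and 80.9% in brain (9466). The genes changed by 1 numbered 102, 94, and 110, and those changed by 2 numbered 98, 106, and 89. These are far fewer than were called in the ovary data, so the shares need not hold there. zFPKM was recomputed from its definition. Names came from the supplement of the paper. Named genes were those of the pathway list, up to 4 called members per other list that changed by 1 or more on the log2 scale, and the 5 most alike by each measure. Sequences and coordinates were not used here, the genome annotation served only for the order of neighbouring genes, and figures were drawn with matplotlib 3.10.9.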

Additional observations from a re-analysis of the deposited data

Results flagged for a closer look

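The effect of ovary activation on fem differed between tissues. The log2 fold change was lower in ovary than in fat body (a difference of -1.83, adjusted p = 0.00173 from limma over 8586 genes) and lower in ovary than in brain (a difference of -2.24, adjusted p = 3.25e-04). Such differences were called in 40.8% and 49.6% of all genes, in either direction. All 3 ovary-active ovary libraries lay below all 3 ovary-inactive ones, as in 33.3% of the genes tested in ovary. The phenotypes overlapped in the other tissues. Both differences rest on the same ovary libraries.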

How the results depend on the processing

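The change of fem in ovary kept its direction and its call under all 17 alternatives, with log2 fold changes of -2.48 to -1.74 and adjusted p of 6.59e-09 to 0.00907 from limma, edgeR, or DESeq2 (-2.42 to -1.74 with a library left out). Scaling to the total count moved the median of all genes in ovary from 0.02 to -0.31 and fem to -2.48, so that relative to the median fem stayed at -2.16. In fat body fem was not called under any of the 17 (-0.45 to -0.23, the same range with a library left out). In brain it was not called under any of the 17, and its sign turned with scaling to the total count (-0.00419) and without OI replicate 2 (-0.10, the range with a library left out being -0.10 to 0.27). The differences between tissues kept their direction and side of the threshold under all 21 alternatives, at -2.14 to -1.43 for ovary minus fat body, -2.52 to -1.84 for ovary minus brain, and -0.58 to -0.21 for fat body minus brain.

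Pools of the phenotypes were paired by age, and the age-matched workers came mostly from different colonies. Deviations of same-numbered libraries correlated at -0.22, -0.11, and 0.25 in brain, -0.24, 0.05, and -0.24 in fat body, and -0.06, 0.16, and -0.18 in ovary. With a replicate block, the log2 fold changes of 0.10, -0.31, and -2.14 had adjusted p of 1.0, 0.38, and 0.00816 in brain, fat body, and ovary, and the differences of -1.83, -2.24, and -0.41 had 0.0022, 5.63e-04, and 0.791, so no call of fem changed. Some ovary-inactive brain pools held other workers than the same-numbered pools of the other tissues, so for the differences the block joins some different workers. Over all genes, the block moved the genes called lower from 174 to 31 in fat body and from 2531 to 2096 in ovary.

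In eggs, fem kept its zFPKM of -1.05 but was not counted as expressed at a threshold of 0, which left 3137 genes. With the density taken over counts of at least 10, its zFPKM was -1.02. Each egg library alone gave -1.05. As CPM, the level moved beyond 1 SD in ovary-active brain (60.8) and in ovary-active and ovary-inactive fat body (29.2 and 36.1) without the 20 most abundant genes, and in ovary-active and ovary-inactive fat body (31.2 and 38.3) and ovary-inactive ovary (36.3) under median-of-ratios scaling. The cause was not tested. Changes smaller than 1 on the log2 scale were not simulated, so how often this design would call them is not known.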

Other observations

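The 4 genes nearest to fem in the order of the RefSeq annotation, 2 on each side, among genes present in every table, were looked at after their values were seen. On one side, LOC110120091, a long noncoding RNA gene, had a normalized count of 4.003, 12.7, and 13.9 in ovary-active and 42.8, 37.7, and 41.4 in ovary-inactive ovary, which is -2.05 on the log2 scale (SE 0.49, limma adjusted p = 0.00996). It was not called in brain or fat body and was not an EEG. On the other side, LOC100631064 (multivesicular body subunit 12A) had 1815 ± 201 (SD over n = 3 pools) and 1874 ± 99.8 and was not called in ovary (log2 fold change -0.05, limma adjusted p = 0.767). Of the next genes, LOC100642389 (protein pinocchio) was called higher in ovary-active ovary (log2 fold change 0.79, limma adjusted p = 0.00311) and lower in ovary-active fat body (-0.77, limma adjusted p = 0.0328), and LOC100645613 was not called in any tissue. The 3 ovary-active values of LOC110120091 were lowest in replicate 1, whereas those of fem were lowest in replicate 3. With so few reads the counting error of LOC110120091 is large, so its order of replicates carries little weight.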
